A study of Mus musculus with 12 samples.

Results

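The transcripts described here are those whose reads lay mostly on the strand opposite to the annotated transcript. A transcript was taken when its sense and antisense counts, summed over 12 libraries, reached at least 50 and the sense count made up at most 20% of that sum. The ID uc012hdk.1, which dominates the antisense counts, was left out. Of 61396 transcript IDs in the files, 573 reached 50 stranded counts, and 134 of these are the antisense-read transcripts. The transcripts were chosen by their pooled strand counts, so the low sense share of these transcripts is a description, and so is every comparison of their strands. The IDs are given as the files have them, because 0 of them were found in the RefSeq gene table available. No gene names, positions, sequences or functions are therefore given, and the level of Mettl14 could not be used to check the genotype labels.

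The libraries hold ribosome-protected fragments of V6.5 mouse embryonic stem cells, a pluripotent line. Cells were wild type (WT) or Mettl14 -/- (KO), and per the labels both came as a gift from another laboratory. Each genotype was sampled unheated (noHS), after 30 min at 42 °C (HS), and after that heating followed by 1 h back at 37 °C (recovery). Each of the 6 groups has 2 libraries, which the series' design calls biological replicates. All groups were grown on gelatin with serum, LIF, the GSK3 inhibitor CHIR99021 and the MEK1 inhibitor PD0325901, and all were washed and lysed with cycloheximide, which stalls ribosomes. The labels do not say whether the KO line is a single clone.

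Ribosome profiling sequences short RNA pieces that survive nuclease digestion with the ribosome pellet. A ribosome on an mRNA protects pieces of that mRNA, so its footprints lie on the sense strand. Mammalian genomes are also transcribed on the strand opposite to many genes, mostly into RNAs that code for no protein. Mettl14 is a subunit of the complex that methylates adenosines in RNA, and cells answer heat shock by making chaperones and lowering the translation of many mRNAs. The origin of the antisense reads was not tested. RNA abundance was not measured in these libraries, so a change in copies and a change in ribosomes per copy cannot be told apart.

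Levels are antisense counts per 1000000 reads of a library (RPM), where the reads are all those entered in the file, counted or not. Library sizes were 679360 to 2084034 reads, so 1 read is worth 0.480 to 1.47 RPM. Counts assigned on either strand ran from 8569 in KO recovery replicate 2 to 182409, and both KO recovery replicate 2 and WT HS replicate 2 had under 20000. The antisense-read transcripts took 3359 to 8981 antisense counts in a library. The share of reads in no transcript was lowest in WT noHS replicate 2, at 12.1%, and highest in KO recovery replicate 2, at 19.6%.

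The 134 transcripts held 71821 antisense counts in all. A single transcript had a median of 137.5 of them, with a lowest value of 44 and a highest of 7740. The counts were concentrated: the 6 largest transcripts took 42.8% of them, the 20 largest 72.4% and the 50 largest 88.7%. In 94 transcripts every library had an antisense count, in 26 there was one in 10 or 11 libraries, and in 14 in fewer, down to 5. No sense count at all was found for 28 transcripts. Per library, sense reads were 0.944% to 3.22% of the stranded counts of the 134.

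At the edges of the rule, uc009img.3 (81 stranded counts, 19.8% sense) and uc009moy.1 (55 counts, 20% sense) were the last transcripts inside the limit on sense share. The nearest outside it were uc007rlf.2, with 53 counts and 20.8% sense, and uc009gjl.2, with 137 counts and 22.6% sense. The limit on the total took in uc008ypv.3 with 50 stranded counts and uc008vit.1 with 52, and left out uc008qis.1 and uc008ykb.2 with 47 each. For uc008ypv.3, 37 of the antisense counts came from WT noHS replicate 1 alone, so its place inside the rule rests on 1 library.

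The either-strand column of the files separated the 134 transcripts into distinct kinds. The layout counts a read in the either-strand column only when it overlaps a single transcript on whichever strand, whereas a read that overlaps transcripts on opposite strands is ambiguous there and yet enters the sense column of the one and the antisense column of the other. For 119 of the 134 transcripts the either-strand count was at least 90% of the stranded counts, and for 104 it was exactly equal to them. For 13 transcripts it was under 10%, and for 5 of these it was 0. Only uc007hhu.1, at 15%, and uc007kip.2, at 89%, lay in between.

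**Figure D1:**
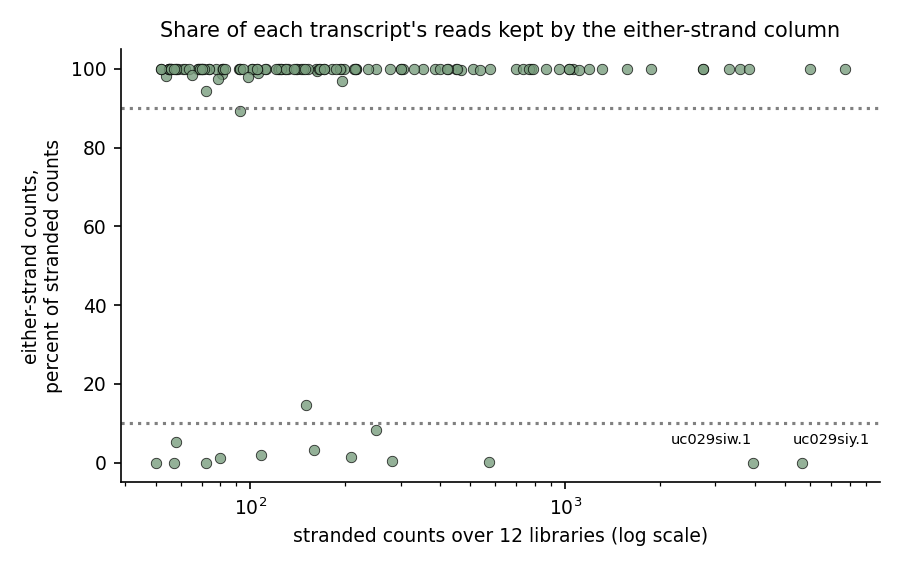
Either-strand count as a percent of stranded counts for each of the 134 antisense-read transcripts (points), against their stranded counts summed over 12 libraries on a log axis. Of the points, 119 lie at 90% or above, 13 under 10% and 2 in between.

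The 119 transcripts at 90% or more, called fully counted below although the lowest of them was at 94.4%, held 60122 antisense counts, 83.7% of the total. The 13 that it hardly counts held 11481, or 16.0%, and within them uc029siy.1 and uc029siw.1 took 83.7% of the counts. The kinds are given apart below, and the hardly counted ones also without these 2 IDs.

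For some of the hardly counted transcripts, the sense counts of another ID matched the antisense counts library by library. Among 416 IDs searched, with a match defined as a summed absolute difference of at most 10% of the counts, 4 of the 13 hardly counted transcripts had a matching ID. It was 0 of the 119 and 0 of the 2 in between. For the 119 this was largely set by their definition, since reads shared with a sense ID are missing from the either-strand column. For uc008qit.2, 571 antisense counts faced 572 sense counts of uc008qiu.2, equal in 11 libraries. For uc007fgc.1, 281 antisense counts faced 280 sense counts of uc007fgb.1, also equal in 11 libraries. The ID uc009cxv.1 (155 counts) was matched by uc009cxu.2 (160), equal in 7 libraries, and uc009kve.1 (251) by uc009kvd.1 (231), equal in 1 library and never more than 6 counts apart. In each of these pairs the IDs follow one another in the ID order. Whether the same reads make both counts was not tested.

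The remaining 9 hardly counted transcripts were also searched as sums of pairs, and 1 of 36 pairs had a match. The antisense counts of uc029siw.1 and uc029siy.1 added up to 9604, and the sense count of uc029six.1, whose ID lies between them, was 9608. The sums were equal in 8 libraries and differed by 1 count in the others. The ID uc029six.1 had 336 and 1439 sense counts in WT noHS, 556 and 297 in WT HS, and 1065 and 841 in WT recovery. In KO cells it had 603 and 4134 in noHS, 203 and 73 in HS, and 45 and 16 in recovery. Its antisense and either-strand counts were 0 throughout, as were the sense and either-strand counts of uc029siw.1 and uc029siy.1. The antisense values of this pair below thus add up, to within 1 count per library, to the sense count of a single ID.

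**Figure D2:**
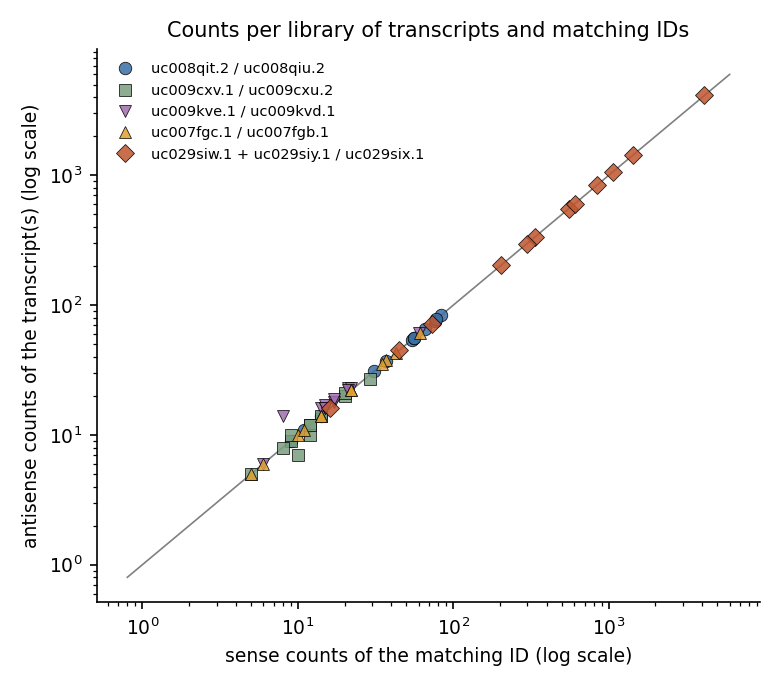
Antisense counts of 4 hardly counted transcripts and of the sum of uc029siw.1 and uc029siy.1 against the sense counts of the matching ID, per library, on log axes with an identity line. The points follow the line: for the uc029si IDs, 8 of 12 libraries are equal and the rest differ by 1 count.

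The most read transcript was uc007mzp.1, with 7740 antisense counts, 10.8% of those of the 134. Transcript lengths were not used here, so this order is by counts taken and not per length. Its level was 507 and 150 RPM in WT noHS, 443 and 557 in WT HS, and 256 and 493 in WT recovery. In KO cells it was 284 and 202 RPM in noHS, 637 and 674 in HS, and 644 and 545 in recovery. Both KO HS libraries and KO recovery replicate 1 lay above every WT library, whereas the WT groups overlapped one another, and WT noHS replicate 2 was the lowest of all 12. Its group means ran from 243 ± 58.3 RPM in KO noHS to 656 ± 25.9 in KO HS (SD, n = 2), and no comparison of it passed the edgeR test.

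The next, uc012cfw.1, had 5996 antisense counts and varied less. Levels were 349 and 177 RPM in WT noHS, 326 and 490 in WT HS, 320 and 226 in WT recovery, 263 and 272 in KO noHS, 418 and 363 in KO HS, and 400.3 and 478 in KO recovery. The KO HS and KO recovery libraries all lay above the KO noHS libraries, while the WT groups overlapped. Group means were between 263 ± 121 RPM in WT noHS and 439 ± 55.2 in KO recovery (SD, n = 2).

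Another of the 6 largest, uc008eix.2 (3834 counts), was at 172 and 149 RPM in WT noHS, 258 and 206 in WT HS, and 134 and 153 in WT recovery. In KO cells it was at 232 and 169 RPM in noHS, 284 and 339 in HS, and 268 and 94.2 in recovery. The HS libraries of each genotype lay above the noHS libraries of that genotype, and the KO recovery libraries spanned the KO noHS ones.

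For uc008unw.2 (3575 counts), levels were 222 and 123 RPM in WT noHS, 284 and 165 in WT HS, 200 and 169 in WT recovery, 81.1 and 73.7 in KO noHS, 281 and 242 in KO HS, and 199 and 465 in KO recovery. Both KO noHS libraries were lower than the other 10, and the WT groups overlapped.

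The pair uc029siy.1 (5643 counts) and uc029siw.1 (3961 counts) ran the other way. The level of uc029siy.1 was 133 and 411 RPM in WT noHS, 105 and 232 in WT HS, and 293 and 391 in WT recovery. In KO cells it was 179 and 1385 RPM in noHS, 52.4 and 69.1 in HS, and 18.6 and 5.89 in recovery. Both KO HS and both KO recovery libraries were below all others, and KO noHS replicate 2 was the highest of the 12. The level of uc029siw.1 was 101 and 325 RPM in WT noHS, 161 and 101 in WT HS, 300 and 362 in WT recovery, 143 and 716 in KO noHS, 51.9 and 11.1 in KO HS, and 6.75 and 17.7 in KO recovery. It was likewise lowest in the heated KO groups and highest in KO noHS replicate 2. Over the 12 libraries these IDs ran together, with a Spearman correlation of 0.909 and a Pearson correlation of log2 levels of 0.879. That is a description of IDs whose reads sum to the count of a single other ID and that share libraries and depth.

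**Figure D3:**
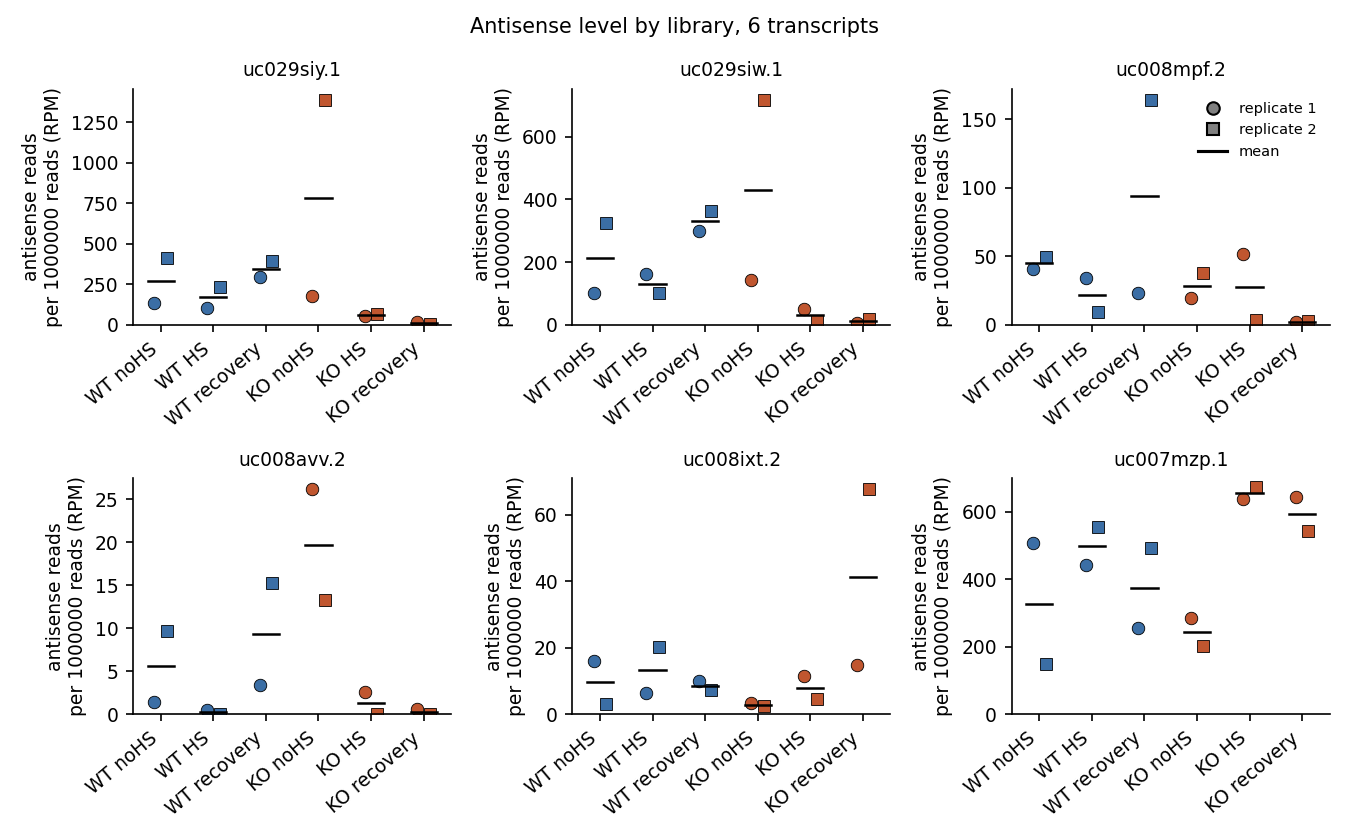
Antisense level RPM reads, on linear axes from 0, in each library (points, shaped by replicate) and the group mean (line) for 6 of the named transcripts. The uc029si IDs are lowest in KO recovery and highest in KO noHS replicate 2, whereas uc008ixt.2 has its highest library, at 67.7 RPM, in KO recovery.

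Summed over all 134 transcripts, the level was highest in the KO cells that had been heated. It was 3335 ± 686 RPM in WT noHS, 3826 ± 523 in WT HS, 3852 ± 379 in WT recovery, 3919 ± 914 in KO noHS, 4395 ± 118 in KO HS and 4646 ± 422 in KO recovery (SD, n = 2). As log2 ratios, HS against noHS was 0.20 in WT and 0.17 in KO, and recovery against noHS was 0.21 in WT and 0.25 in KO. The log2 SDs of the groups compared, combined in quadrature, were 0.33 to 0.36 and larger than each of these ratios. KO against WT was 0.23 in noHS, 0.20 in HS and 0.27 in recovery, with combined SDs of 0.45, 0.20 and 0.19. All 4 libraries of KO HS and KO recovery, at 4312 to 4944 RPM, lay above all 6 WT libraries, at 2850 to 4197, and KO noHS replicate 2, at 4566, lay among them. With the 13 hardly counted transcripts left out, the KO ratios were 0.69 for HS and 0.78 for recovery.

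The kinds of transcript differed in their order of groups. The 119 fully counted transcripts stood at 3464 and 1985 RPM in WT noHS, 3136 and 3793 in WT HS, and 2915 and 3220 in WT recovery. In KO cells they stood at 2817 and 2359 RPM in noHS, 4245 and 4096 in HS, and 4193 and 4731 in recovery. The KO HS and KO recovery libraries were higher than all 8 others, and the WT groups overlapped. The 13 hardly counted transcripts stood at 342 and 859 RPM in WT noHS, 312 and 402 in WT HS, 658 and 887 in WT recovery, 440 and 2197 in KO noHS, 218 and 196 in KO HS, and 138 and 202 in KO recovery. Here the 4 libraries of heated KO cells were the lowest. That order was set by the uc029si IDs: without them the other 11 stood at 107 ± 15.4 RPM in KO noHS, 115 ± 1.60 in KO HS and 146 ± 46.0 in KO recovery (SD, n = 2).

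The sum over the fully counted transcripts moved with the share of reads in no transcript. That share was 15.8% and 12.1% in WT noHS, 15.3% and 17.2% in WT HS, 14.5% and 15.5% in WT recovery, 14.8% and 14.1% in KO noHS, 16.3% and 16.5% in KO HS, and 16.5% and 19.6% in KO recovery. WT noHS replicate 2 was lowest and KO recovery replicate 2 highest in both measures. The part of this share in the summed levels was not tested.

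The direction of a general shift depends on the scaling. Scaled to all reads, the median fitted log2 change of the 147 IDs tested was 0.11 for WT HS, 0.42 for KO HS, 0.24 for WT recovery and 0.61 for KO recovery, each against noHS of the same genotype. With TMM, which assumes that most IDs do not change and let 258 IDs pass the filter, these medians were -0.10, -0.02, -0.03 and 0.29. Scaled to the antisense counts without uc012hdk.1, they were 1.12, 1.42, 0.99 and 1.33. Values of single transcripts below are on the scale of all reads and are read against these medians.

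**Figure D4:**
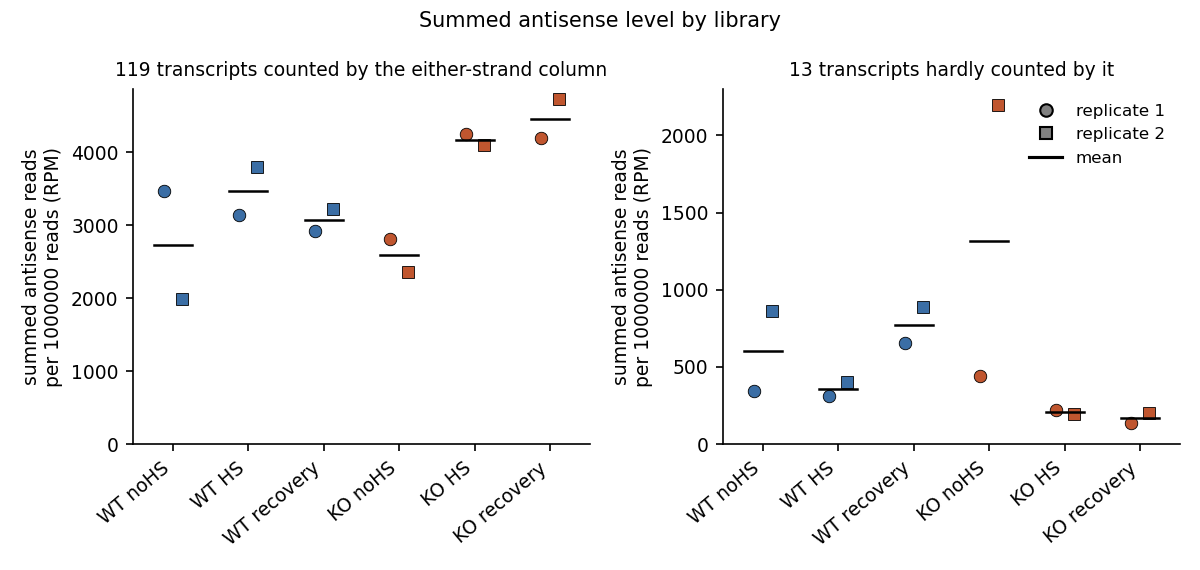
Summed antisense level RPM reads in each library (points) with the group mean, for the 119 fully counted and the 13 hardly counted transcripts. The fully counted ones are highest in KO HS and KO recovery, at 4096 to 4731 RPM, where the hardly counted ones are lowest, at 138 to 218.

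Transcript by transcript, the group with the highest mean was KO recovery for 48 of the 134 (35.8%) and KO HS for 31 (23.1%). It was WT noHS for 21, KO noHS for 14, WT HS for 10 and WT recovery for 10. Over all 147 IDs that passed the filter on low counts, antisense-read or not, KO recovery was highest for 38.8% and KO HS for 21.1%, so the shares are near that background. Here and in the comparisons below, that background is made mostly of these transcripts, so nearness to it is largely built in. Of the 134, 119 passed the filter, with only 28 other IDs, and these 119 are not the same set as the 119 fully counted ones. Of the fully counted transcripts 105 passed, of the 13 hardly counted 12, and both in between.

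The replicates set the limit on what a single transcript can show. Among transcripts with a group mean of at least 10 RPM, 52 to 69 per group, the median fold between the 2 libraries was 1.93 in WT noHS, 1.59 in WT HS, 1.36 in WT recovery, 1.41 in KO noHS, 1.24 in KO HS and 1.53 in KO recovery. More than 2-fold separated the replicates for 26 transcripts in WT noHS and 26 in KO recovery, against 6 in KO HS. Over the 134 levels, Spearman's correlation between replicates was lowest in WT noHS at 0.640 and highest in KO HS at 0.884. The most alike libraries of all were not replicates: KO HS replicate 2 and KO recovery replicate 1 had a correlation of 0.890. KO noHS replicate 2 and KO recovery replicate 2 were the least alike, at 0.403. The biological coefficient of variation in the edgeR fit was 50.3%.

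In WT cells, no antisense-read transcript passed the edgeR test after heating. Of the 119 tested, 0 rose and 0 fell at an adjusted p below 0.05, against 0% of the 147 IDs tested. Before adjustment 22 had a p below 0.05, against 29 of the 147 IDs tested, while DESeq2 called 1, against 4 of the 147. The median log2 ratio of HS over noHS across the 134 was 0.10, with quartiles at -1.04 and 0.80, and the same ratio had a median of -0.01 over all IDs tested. The libraries of HS and noHS did not overlap for 25 transcripts that were higher in HS (18.7%, against 17.7% of the IDs tested) and for 30 that were lower (22.4%, against 23.8%). Folds and ratios given with an interval, here and below, compare pooled levels, the summed counts of a group's libraries per summed reads, and not mean RPM. The transcript with the smallest p among those higher was uc007ait.1, with 6 and 1 antisense counts unheated, then 20 and 27 in HS, a pooled level 7.66-fold higher (3.44 to 20.1 from counting error at 95% confidence, edgeR adjusted p = 0.0988). Among those lower it was uc009nid.1, with 18 and 40 counts unheated, then 1 and 3 in HS, 12.7-fold lower (4.71 to 48.2, edgeR adjusted p = 0.0946). Neither passed the test. Without WT noHS replicate 1, 2 transcripts were called.

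In KO cells, no antisense-read transcript passed the test after heating, and the 134 lay higher by about as much as all IDs tested. With TMM the median over the IDs tested was -0.02, so this shift holds for the scale of all reads and not for TMM. At an adjusted p below 0.05 in edgeR, 0 of the 119 tested rose and 0 fell, against 0% of the IDs tested. Before adjustment 13 had a p below 0.05, against 20 of the 147 IDs tested, while DESeq2 called 2, against 7 of the 147. The median log2 ratio was 0.34 (quartiles -0.19 and 0.79), beside a median of 0.36 for the same ratio over the IDs tested. It was 0.43 for the 119 fully counted transcripts and -0.43 for the 13 hardly counted. Since 119 of the 134 transcripts are among the 147 IDs of the background, nearness to it is largely built in. Libraries did not overlap for 55 transcripts higher in HS (41.0%, background 42.2%) and 19 lower (14.2%, background 17.7%). The higher ones were 52 fully counted and 2 hardly counted transcripts and 1 in between. By the smallest p, the leading higher transcript was uc009kve.1, with 16 and 16 counts unheated, then 61 and 19 in HS, a ratio of 3.38 (2.22 to 5.26, edgeR adjusted p = 0.144). It is one of the hardly counted, matched above by the sense counts of uc009kvd.1. The leading lower one was uc029siw.1, 11.2-fold lower (9.22 to 13.7, edgeR adjusted p = 0.0667). The count of 0 became 2 without either WT noHS library or either WT HS library, and 3 without KO noHS replicate 1. It became 16 of 87 tested, 12 higher and 4 lower, when edgeR was fitted to the 4 libraries of this comparison alone. Of all 101 IDs tested there, 25 passed, 13 higher and 12 lower. Whether the HS response differed between KO and WT was tested directly. Of the 119 transcripts tested 0 passed (background 0%), and 8 had a p below 0.05 before adjustment, against 9 of the 147 IDs tested. DESeq2 called 0, as over all 147. The smallest p among higher differences was that of uc012bzx.1 (log2 difference 4.66, edgeR adjusted p = 0.406), with at most 20 counts in a library, and among lower ones that of uc029siw.1 (-3.03, edgeR adjusted p = 0.406).

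Recovery in WT cells gave no call among the antisense-read transcripts. None of the 119 tested passed the edgeR test in either direction, while 2 of the 28 other IDs did (1.36% of all IDs tested). Before adjustment 9 of the 119 had a p below 0.05, against 13 of the 147 IDs tested, and by DESeq2 there were 0 calls, against 3 of the 147. The median log2 ratio of recovery over noHS was 0.19, with quartiles at -0.44 and 0.68, against a median of 0.20 for the same ratio over the IDs tested. More than 2-fold separated the group means for 11 transcripts that were higher and 22 that were lower. The same was not counted over all IDs tested, and transcripts of few counts, such as uc007xjs.1 below, are among these. Groups did not overlap for 24 higher (17.9%, background 17%) and 17 lower (12.7%, background 12.9%). Highest by p stood uc009eps.2, with 1 and 2 counts before and 22 and 8 after, a ratio of 11.6 (3.62 to 59.6, edgeR adjusted p = 0.284). The lower transcript with the smallest p, uc007xjs.1, held 60 and 1 counts unheated, then 1 and 0 in recovery, so that the groups overlapped and the difference rests on WT noHS replicate 1. The count of 0 became 2 without WT noHS replicate 2 and 1 without KO noHS replicate 1.

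**Figure D5:**
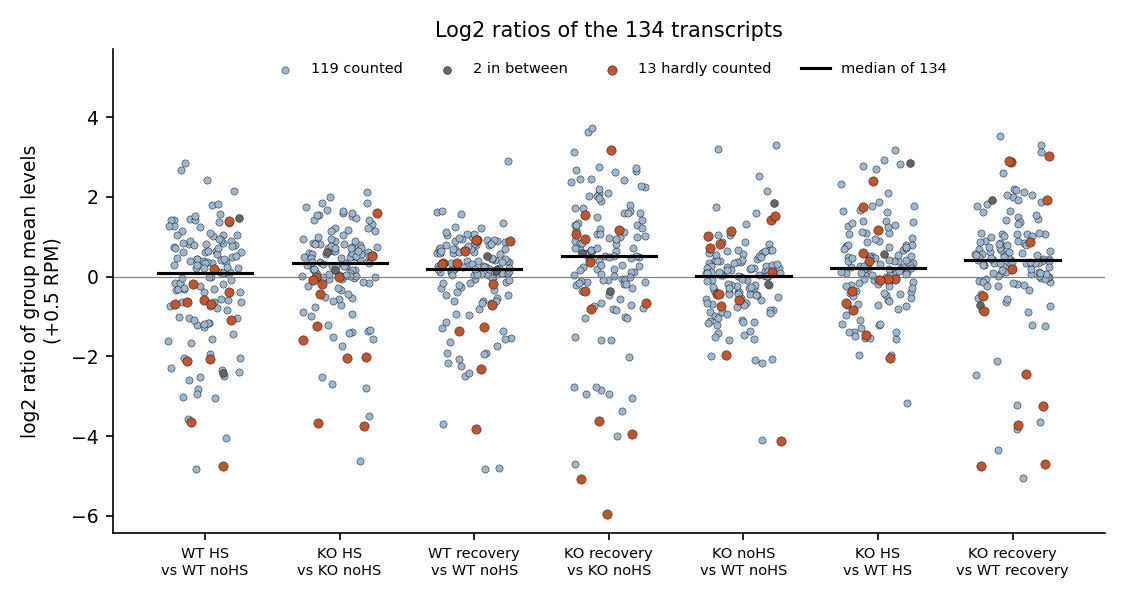
Distribution over the 134 transcripts of the log2 ratio of group mean levels (0.5 RPM added) in each comparison, with fully counted and hardly counted transcripts marked. The medians run from 0.00 for KO against WT unheated to 0.51 for KO recovery against KO noHS.

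Recovery in KO cells was the comparison with the most changes. At an adjusted p below 0.05 in edgeR, 6 of the 119 transcripts tested rose and 3 fell. Over all 147 IDs tested, these calls included, 10.2% passed, 4.08% higher and 6.12% lower. Of the 28 other IDs, 0 were called higher and 6 lower. The 6 that rose are all fully counted transcripts, and 2 of the 3 that fell are the uc029si IDs. Across the 134 the median log2 ratio was 0.51 (quartiles -0.26 and 1.30). The same ratio had a median of 0.56 over the IDs tested, so that the middle ID was itself higher in recovery. Groups did not overlap for 65 transcripts higher in recovery (48.5%, background 49.7%) and for 23 lower (17.2%, background 19.7%).

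Among those that fell, uc029siy.1 went from 335 and 2724 counts in KO noHS to 33 and 4 in KO recovery. Its pooled level was 52.9-fold lower (95% counting interval 38.3 to 75.3), with a log2 change of -5.90 ± 1.02 (SE) and an edgeR adjusted p of 0.00143. The ID uc029siw.1 went from 268 and 1409 counts to 12 and 12, 44.7-fold lower, with a log2 change of -5.22 ± 0.99 and an edgeR adjusted p of 0.00293. Both KO recovery libraries lay below both KO noHS libraries, and KO noHS replicate 2 was the highest of all. Without that library the log2 changes were -3.78 and -3.63, with edgeR adjusted p of 0.00339 and 0.00882. Without KO recovery replicate 1 the adjusted p was 0.0529 for uc029siy.1 and 0.0839 for uc029siw.1, and without replicate 2 it was 0.0889 and 0.0740, which are not calls, with log2 changes of -7.03 and -4.60 without replicate 1 and -5.39 and -5.98 without replicate 2.

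Sense counts as a whole were low in the same libraries. All sense counts were 285157 and 393501 in KO noHS and 21472 and 6479 in KO recovery. Ambiguous reads went from 10.7% and 13.5% of the library to 1.40% and 1.45%, and assigned reads from 6.58% and 8.37% to 1.27% and 1.26%. Over the 622 IDs tested on either-strand counts, the median log2 change was -2.54, where the antisense counts gave 0.61. All antisense counts also went from 185339 and 252891 to 19866 and 7093, and without uc012hdk.1 from 22426 and 25123 to 14305 and 5257. The libraries held 1874747 and 1967103 reads in KO noHS and 1778481 and 679360 in KO recovery. Since the counts of uc029siy.1 and uc029siw.1 add up to a sense count, their fall stands beside this drop of counts on both strands. The part of the drop in their fall was not tested.

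The third to fall, uc008avv.2, is a transcript of low counts: 49 and 26 in KO noHS, 1 and 0 in KO recovery, 5 and 0 in KO HS, and at most 19 in a WT library. The single read in recovery gives a pooled level 47.98-fold lower, with a wide counting interval of 8.35 to 1920 (edgeR log2 change -5.38 ± 1.42, adjusted p = 0.0235). The groups did not overlap. Without KO noHS replicate 1 its edgeR adjusted p was 0.0708, without KO recovery replicate 1 it was 0.137, and without KO recovery replicate 2 it was 0.206.

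Of the transcripts that rose, uc007kml.2 had the largest change, from 2 and 0 counts in KO noHS to 10 and 14 in KO recovery, a ratio of 18.8 (4.66 to 164, edgeR log2 change 4.38 ± 1.29, adjusted p = 0.0404). It had 15 and 4 counts in WT recovery and at most 6 in the remaining libraries. The call was lost in 18 of 21 alternative settings. The transcript uc008ixt.2 stood at 3.20 and 2.54 RPM in KO noHS and at 14.6 and 67.7 in KO recovery. In WT cells it stood at 16.0 and 3.07 RPM in noHS, 6.24 and 20.2 in HS, and 10.0 and 7.16 in recovery. Its ratio of pooled levels in KO recovery against KO noHS was 10.2 (5.39 to 21.4, edgeR log2 change 3.76 ± 0.94, adjusted p = 0.0172). KO recovery replicate 2 was its highest library, and without it the log2 change was 2.32 and the edgeR adjusted p 0.309. Neither was called without KO noHS replicate 2, where the log2 changes were 3.46 for uc007kml.2 and 3.61 for uc008ixt.2, or without KO recovery replicate 1, where they were 5.09 and 4.52. The edgeR adjusted p of uc008ixt.2 was then 0.134 and 0.0529.

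One of the 6 that rose is among the most read: uc008unw.2, described above, with 77.4 ± 5.21 RPM in KO noHS and 332 ± 188 in KO recovery (SD, n = 2, edgeR log2 change 2.10 ± 0.59, adjusted p = 0.0308). Both KO recovery libraries lay above both KO noHS libraries, and those 2 were also below all WT libraries. The log2 change was 1.36 without KO recovery replicate 2, which is the higher of the recovery libraries. The other 3 that rose had edgeR adjusted p of 0.0172 to 0.0308 and ratios of 3.57 to 8.79.

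The 6 calls of a rise were lost with TMM and with DESeq2 size factors in edgeR, settings that also let 258 in place of 147 IDs pass the filter. The log2 changes there stayed positive, for example 3.65 for uc007kml.2, 2.97 for uc008ixt.2 and 2.57 for uc009rvv.2 with TMM, where edgeR gave adjusted p of 0.107, 0.0607 and 0.0593. The 3 that fell kept their calls under both. With counts scaled to the antisense total without uc012hdk.1, 13 rose and 4 fell, against 14 and 9 of the 124 IDs tested there. DESeq2's own test on the 147 IDs called 1 that rose, uc008ixt.2 (log2 change 3.07, DESeq2 adjusted p = 0.0380), and 6 that fell. Over all 147 it called 1 higher and 14 lower. It also used DESeq2's size factors in place of all reads, and its median log2 change over the 147 was -0.10. The parts of the test and of the scaling in these counts were not told apart. TMM brought the median fitted change of the IDs it tested to 0.29. Single libraries decided the count too. It was 0 without KO recovery replicate 1 and 0 without replicate 2, 3 without KO noHS replicate 2, 16 without WT noHS replicate 1 and 17 without WT noHS replicate 2. It was 5 on leaving out WT recovery replicate 2, KO noHS replicate 1, KO HS replicate 1 or KO HS replicate 2. With both libraries of under 20000 either-strand counts left out, a setting added after the data were seen, 2 were called, both of them uc029si IDs that fell.

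Between the genotypes, the unheated cells gave no call. KO against WT noHS gave 0 of the 119 transcripts tested up and 0 down in edgeR (0% of the IDs tested). There were 7 with a p below 0.05 before adjustment, against 10 of the 147 IDs tested, and 0 by the DESeq2 Wald test, as over all 147. The median log2 ratio was 0.00, with quartiles at -0.59 and 0.40, and the same ratio over the IDs tested also had a median of 0.00. Libraries did not overlap for 21 transcripts higher in KO (15.7%, background 18.4%) and 18 lower (13.4%, background 15%). The leading higher transcript by p, uc007qyr.2, had 1 and 2 counts in WT noHS and 14 and 14 in KO noHS, a ratio of 8.24 (2.55 to 42.4, edgeR adjusted p = 0.511). The leading lower one, uc007xjs.1, again rested on the 60 counts of WT noHS replicate 1 (edgeR adjusted p = 0.511), and without that library its log2 change was 0.53 in the other direction.

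After heating, KO against WT again gave 0 calls in either direction among the 119 transcripts tested (0% of the IDs tested). A p below 0.05 before adjustment was seen for 12, against 13 of the 147 IDs tested. The DESeq2 Wald test called 0, as over all 147. Across the 134 the median log2 ratio was 0.21 (quartiles -0.38 and 0.79), and the same ratio over the IDs tested also had a median of 0.21. Libraries did not overlap for 41 transcripts higher in KO (30.6%, background 27.9%) and 17 lower (12.7%, background 12.9%). The transcript with the smallest p was uc008qit.2, one of the hardly counted, whose 84 and 56 counts in KO HS stood against 14 and 11 in WT HS, a ratio of 5.86 (3.81 to 9.36, edgeR adjusted p = 0.0975). In the other direction it was uc029siw.1, with a log2 change of -2.02 and an edgeR adjusted p of 0.432.

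In recovery, 0 of the 119 transcripts tested were higher in KO than in WT by the edgeR test and 3 were lower. Over all 147 IDs tested 4.76% passed, all of them lower, and 4 of these were among the 28 other IDs. The median log2 ratio was 0.41 (quartiles -0.06 and 1.02), beside 0.43 for the same ratio over the IDs tested, and every call was lower. The median fitted change over the IDs tested was 0.52 scaled to all reads, 0.26 with TMM, 0.18 scaled to the antisense counts without uc012hdk.1 and 0.01 in DESeq2, so the general shift depends on the scaling. Groups did not overlap for 49 transcripts higher in KO (36.6%, background 38.8%) and 15 lower (11.2%, background 14.3%).

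The transcript uc008mpf.2 had 42 and 183 counts in WT recovery and 3 and 2 in KO recovery, 38.0-fold lower (16.0 to 118, edgeR log2 change -5.41 ± 1.23, adjusted p = 0.0116). In the other groups its counts were 58 and 97 in WT noHS, 71 and 8 in WT HS, 36 and 74 in KO noHS, and 100 and 3 in KO HS, so it was low in 1 library of each HS group as well. Both recovery groups were apart, but WT recovery replicate 2 was the highest library of all 12, and without it the log2 change was -3.42 with an edgeR adjusted p of 0.233. The uc029si IDs made up the remaining calls. For uc029siw.1 the pooled level was 33.2-fold lower in KO (22.1 to 52.0, log2 change -4.84 ± 0.98), and for uc029siy.1 the log2 change was -4.71 ± 0.97, both with an edgeR adjusted p of 0.00809. All 3 calls were lost without KO recovery replicate 1, without KO recovery replicate 2, and without both shallow libraries, where the log2 changes ran from -4.94 to -5.72 for uc008mpf.2, -4.22 to -5.60 for uc029siw.1 and -4.20 to -5.84 for uc029siy.1. In this comparison too the sense counts were lower as a whole, 267691 and 167721 in WT recovery against 21472 and 6479 in KO recovery. All antisense counts were 159828 and 98661 against 19866 and 7093, and without uc012hdk.1 they were 9644 and 8520 against 14305 and 5257. In edgeR, 5 transcripts were called without WT HS replicate 1 or replicate 2. Among the higher transcripts, uc007mjk.1, one of the hardly counted, had the smallest p, with 3 and 2 counts in WT recovery and 11 and 20 in KO recovery, a ratio of 7.35 (2.83 to 24.2, edgeR adjusted p = 0.0590).

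The difference between the recovery responses of KO and WT was tested as a term of its own, in the same fit. In 2 of the 119 transcripts tested, uc029siy.1 and uc029siw.1, the response was lower in KO, and in 0 it was higher. Over all 147 IDs tested 3.4% passed, all of them lower, and 3 of these were among the 28 other IDs. The difference was -6.23 ± 1.27 on the log2 scale for uc029siy.1 (edgeR adjusted p = 0.0077) and -5.85 ± 1.25 for uc029siw.1 (edgeR adjusted p = 0.00965). In WT cells these IDs changed by 0.33 and 0.63 from noHS to recovery, with edgeR adjusted p of 0.97 and 0.96. Without KO noHS replicate 2 the differences were -4.10 and -4.26, both with an edgeR adjusted p of 0.0262. Without KO recovery replicate 1 or replicate 2 neither passed, with adjusted p of 0.0939 to 0.130. The higher difference with the smallest p, 8.41 for uc007xjs.1 (edgeR adjusted p = 0.0624), again rests on the 60 counts of WT noHS replicate 1. The number of transcripts called was 7 without WT noHS replicate 2, 4 without WT recovery replicate 1 and 4 without KO noHS replicate 2. The comparisons of KO recovery with KO noHS and with WT recovery share the KO recovery libraries, and the difference of responses contains both, so the calls of the uc029si IDs in all of these are not separate evidence.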

How the data were processed

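The authors deposited raw counts per transcript ID for each of the 12 libraries, in the layout of STAR's gene counts: either-strand, sense and antisense, per the file layout. STAR, DESeq2 and the mouse build mm10 are named, with no version or role, per the submitters' processing notes. No source used here gives the alignment settings or the annotation's version. The antisense-read transcripts and the lists were chosen with earlier results of these data known. Antisense counts were divided by all reads of the library and multiplied by 1000000 (RPM). All IDs, uc012hdk.1 included, were filtered with filterByExpr (minimum count 10, 147 kept). The test was edgeR 4.0.16, quasi-likelihood, in 1 model of all 12 libraries, by group, with 6 residual degrees of freedom. Library sizes were all reads, with no further scaling. Benjamini-Hochberg adjustment ran over the 147 IDs, with a threshold of 0.05. The scripts were tested on simulated data. DESeq2 1.42.0, TMM and the other settings tried are in the closing section. DESeq2's test was run on the 147 IDs with its own size factors and not with all reads. Folds and ratios with 95% Clopper-Pearson intervals compare pooled levels, the summed counts of a group's 2 libraries per summed reads, and not mean RPM. The intervals cover counting error only, and a floor of 3 counts is 1.44 to 4.42 RPM. Transcripts were named by counts taken (the 6 largest), by the largest changes among calls (at most 2 per direction, mean of at least 10 RPM, no overlap), by the smallest p in a direction with no call, and at the limits of the rule.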

Additional observations from a re-analysis of the deposited data

Results flagged for a closer look

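The difference between KO and WT in the response from noHS to recovery passed its own test, as an interaction term in edgeR, for 2 antisense-read transcripts. It was -6.23 on the log2 scale for uc029siy.1 (adjusted p = 0.0077) and -5.85 for uc029siw.1 (adjusted p = 0.00965). In both, KO recovery was the group with the lowest mean level, from 33 and 4 counts of uc029siy.1 and 12 and 12 of uc029siw.1. Their counts add up, to within 1 per library, to the sense count of uc029six.1. All sense counts were also low in KO recovery, at 21472 and 6479 against 285157 and 393501 in KO noHS. All antisense counts, uc012hdk.1 included, were low there too, at 19866 and 7093 against 185339 and 252891. Without uc012hdk.1 they were 14305 and 5257 against 22426 and 25123. The libraries held 1778481 and 679360 reads in KO recovery and 1874747 and 1967103 in KO noHS. The summed level of the antisense-read transcripts was not lower in KO recovery as a group, at 4348 and 4944 RPM against 3273 and 4566. The part of the drops in sense and antisense counts in the difference was not tested. KO noHS replicate 2, with 2724 and 1409 counts, is far above its replicate with 335 and 268. No group had enough libraries for a test of outlying samples.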

How the results depend on the processing

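Numbers of antisense-read transcripts called by edgeR depended on the setting, and the cause was not tested. Calls over all IDs, against noHS, were 4 of 147 (DESeq2's test), 7 of 6364 (no filter) and 2 of 95 (only groups compared) for WT HS. For KO HS they were 7 of 147, 7 of 6364 and 25 of 101. For KO recovery they were 7 of 258 (TMM or DESeq2 size factors) and 23 of 124 (antisense scaling). The replicate block gave 10 of 147 there and either-strand counts 34 of 622. The numbers that follow are of antisense-read transcripts. For WT HS against noHS, 0 became 1 with DESeq2's test, 3 with no filter and 1 with only the groups compared, and 0 to 2 with single libraries left out. For KO HS against noHS, 0 became 2 with DESeq2's test, 2 with no filter and 16 (12 higher) with only the groups compared, and 0 to 3 with a library left out. For WT recovery against noHS, 0 became 2 with no filter and 1 with only the groups compared, and 0 to 2 with a library left out. For KO recovery against noHS, 9 became 3 with TMM, 3 with DESeq2 size factors, 17 scaled to antisense counts without uc012hdk.1, 5 with the replicate block (2 higher, 3 lower), 1 with either-strand counts and 2 without both shallow libraries, and 0 to 17 with a library left out. KO against WT gave 1 in noHS and 2 in HS with no filter, where 0 were called, and 0 with each library left out. In recovery, 3 became 5 with TMM, 5 with DESeq2's test, 1 with either-strand counts and 0 without both shallow libraries, and 0 to 5 with a library left out. The difference of HS responses was 0 in every setting. The difference of recovery responses, 2, became 6 scaled to antisense counts, 4 with DESeq2's test, 7 with no filter, 4 with only the groups compared, 0 with either-strand counts and 1 without both shallow libraries, and 0 to 7 with a library left out. Over all IDs, the difference of recovery responses gave 11 of 124 scaled to antisense counts, 9 of 147 with DESeq2's test and 11 of 6364 with no filter. KO against WT in recovery gave 8 of 258 with TMM, 10 of 147 with DESeq2's test and 55 of 622 with either-strand counts. With no filter, KO against WT gave 2 of 6364 IDs in noHS and 2 of 6364 in HS. Either-strand counts hold no read of the uc029si IDs, so the uc029si IDs could not be tested there.

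No pairing of the libraries by replicate number was seen: the replicate differences of the groups correlated at -0.304 to 0.254 over 15 group pairs. With a single replicate difference per group, this cannot exclude a pairing. The replicate block left the 3 calls of KO against WT in recovery and the 2 of the recovery responses at those numbers.

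The summed log2 ratio of the 134 moved with its denominator. Per 1000000 antisense counts without uc012hdk.1 it was 1.05 for WT HS, 1.14 for KO HS, 0.91 for WT recovery, 0.90 for KO recovery and -0.034 for KO against WT in recovery. Per 1000000 reads mapped to 1 place it was 0.97 for KO recovery and 0.91 for KO against WT in recovery. Without the 13 hardly counted transcripts it was 0.69, 0.78 and 0.54 for KO HS, KO recovery and KO against WT in recovery. With a library left out it ran from 0.00 to 0.42 for WT HS, -0.05 to 0.43 for KO HS, 0.01 to 0.43 for WT recovery and 0.03 to 0.51 for KO recovery, and for KO against WT from -0.03 to 0.46 in noHS, 0.07 to 0.35 in HS and 0.17 to 0.37 in recovery. Among the named transcripts, 382 of 446 alternatives kept direction and side of the threshold, 43 lost the call, 20 gained one, and 1 turned its sign: uc007xjs.1 in KO against WT noHS, which ran from -7.98 to 0.53 with a library left out, 0.53 being without WT noHS replicate 1. The 446 include comparisons that were never called, which could not lose a call. In KO recovery against noHS, uc007kml.2 kept its call in 3 alternatives and lost it in 18, and uc008ixt.2 kept it in 14 and lost it in 7. Each other named call was kept in 17 or 18 and lost in 2 to 4. Depth limits the transcripts with few counts, since 3 counts are 1.44 to 4.42 RPM in a library.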
